A study of Mus musculus with 6 samples.

Results

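YAP, TEAD and their targets were represented by 10 genes, Yap1, Tead1, Ccn1, Ccn2, Amotl1, Amotl2, Ankrd1, Ajuba, Lats2 and Fjx1, among the 27179 features of the expression table. The members were found by symbol, each in 1 row. They had been selected on values from the authors' own comparison of the treatments, which were not used here. The RNA came from B16F10, an established mouse melanoma line labelled wild type and of skin origin, grown in DMEM with serum. Cultures received ozonated olive oil (OZO) or olive oil without ozone (OLO), both at 0.01% for 6 h, with 3 libraries per treatment. The oils came from a commercial supplier. The measurement analysed is the authors' average expression, 1 value per gene over all 6 libraries of both treatments. It is in log2 CPM, where CPM is the read count scaled to a common library size. CPM values below are this average taken off the log scale, a geometric mean with 0.5 reads added to each count. OZO-treated and OLO-treated cells are merged in the average, so it has no spread. Neither a treatment effect nor a test could be derived from it. An order of genes by this value is therefore a description, and which neighbours in the order differ beyond the error cannot be said.

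YAP and its relative TAZ are transcriptional coactivators that have no DNA-binding domain of their own and reach their target genes through the TEAD factors. In the Hippo pathway, the MST kinases activate the LATS kinases, which phosphorylate YAP and TAZ and keep them in the cytoplasm. The pathway responds to cell density, cell shape and tension of the actin cytoskeleton. Angiomotins bind YAP and the LIM adaptors of the AJUBA family bind LATS, and several of these regulators are themselves induced by YAP, a feedback that LATS2 and AMOTL2 share.

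The sequence that TEAD factors recognise was looked for first, as the 6 letters CATTCC, which read GGAATG on the other strand. The choice of the members used no sequence, although several are textbook TEAD targets. RefSeq promoter windows on GRCm38.p6, each with 250 bases before the start site and 50 from it on, were at hand for 7 of the 10 genes, with 8 windows because Lats2 had a pair of start sites. The windows of Tead1, Ccn2 and Fjx1 were not analysed here. The motif stood in the windows of 6 of the 7 genes, with 8 matches in all. Over all 27025 genes with a window, 16.6% held it, and 14.1% of the 9373 genes with at least 1 CPM did. Amotl1 was the member without a match. Ajuba and Ankrd1 held the motif 2 times, and 1.36% of all 32851 windows held it 2 or more times. These are matches of letters and no measure of binding. The 30 bases around each match are printed below 5′ to 3′ on the strand of the gene, with the motif in capitals, to show each match in its surroundings. The flanking bases differ between the sites.

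Ajuba, distal site: cgttgatggataCATTCCacagtgcccctc
Ajuba, proximal site: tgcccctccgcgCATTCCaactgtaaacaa
Amotl2: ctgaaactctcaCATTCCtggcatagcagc
Ankrd1, distal site: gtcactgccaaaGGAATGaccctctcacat
Ankrd1, proximal site: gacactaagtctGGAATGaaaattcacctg
Ccn1: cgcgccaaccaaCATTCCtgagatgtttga
Lats2: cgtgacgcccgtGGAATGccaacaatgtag
Yap1: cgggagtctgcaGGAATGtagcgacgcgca

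The Ajuba matches lay on the strand of the gene, 186 and 164 bases upstream of the start site, in chr14:54577830-54577859 and chr14:54577808-54577837. The Ccn1 match began 103 bases upstream (chr3:145650071-145650100) and that of Amotl2 began 65 bases upstream (chr9:102717727-102717756), both on the strand of the gene. Ankrd1 carried its matches on the opposite strand, 210 and 123 bases upstream (chr19:36120037-36120066 and chr19:36119950-36119979). The Yap1 match was also on the opposite strand and began 141 bases upstream (chr9:8004720-8004749). In Lats2, the match began 4 bases after the start site of 1 of its windows (chr14:57746102-57746131), again on the opposite strand, and the other Lats2 window had none. Read on the motif's own strand, the next base was A or T at every site, with 3 genes holding CATTCCA and 4 holding CATTCCT. Among all genes with a window these longer forms occurred in 4.95% and 6.15%.

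**Figure D1:**
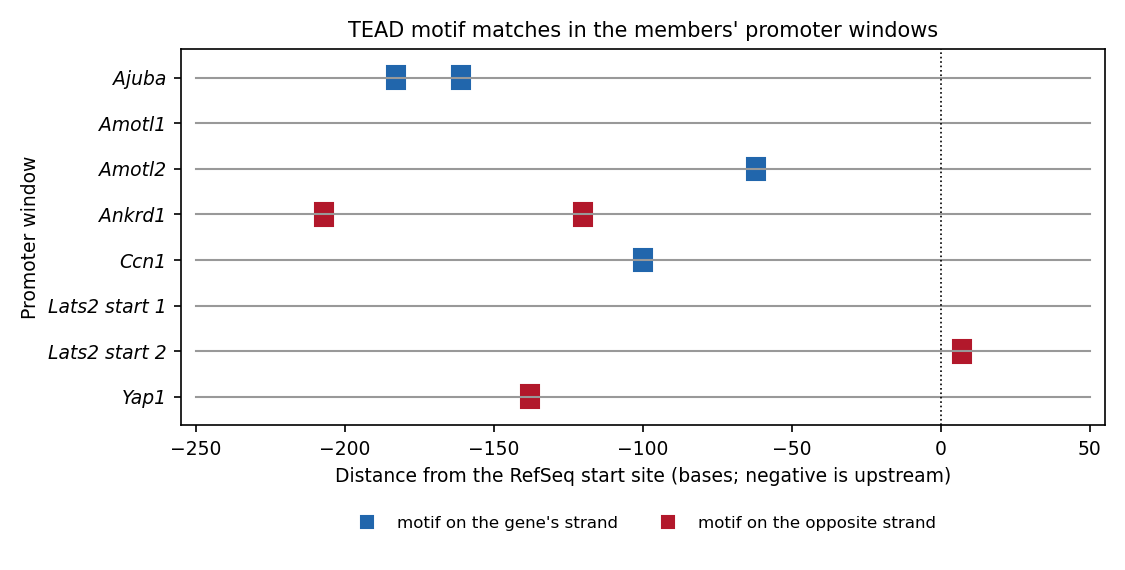
Positions of the 6-letter TEAD motif in the 8 promoter windows of 7 members, as the distance in bases from the RefSeq start site, with blue for the gene's strand and red for the opposite strand (Lats2 start 2 is the more upstream of its start sites). Matches lie from 210 bases upstream in Ankrd1 to just after the start site in Lats2, and the Amotl1 window has none.

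The start sites did not all match the 5′ ends of the GENCODE M21 genes. They lay within 4 bases for Yap1 and Ccn1 and 103 bases upstream of the GENCODE end for Ajuba. The Ankrd1 start site was 255 bases inside the annotated gene, and all 250 bases before it were covered by annotated exons. For Amotl2 the start site was 1132 bases inside and 136 of the 250 bases were exonic. The windows of Amotl1 and Lats2 lay between 12265 and 30056 bases inside the annotated genes, at internal start sites. Upstream sequence free of annotated exons was available for Ccn1, Ajuba and both windows of Lats2. It is given whole for Ccn1, a secreted target, and Ajuba, an adaptor with the paired motif, because their matches lie in it whereas that of Lats2 lies after the start site, again with the motif in capitals, from chr3:145649986-145650235 and chr14:54577662-54577911 (minus strand).

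Ccn1 upstream: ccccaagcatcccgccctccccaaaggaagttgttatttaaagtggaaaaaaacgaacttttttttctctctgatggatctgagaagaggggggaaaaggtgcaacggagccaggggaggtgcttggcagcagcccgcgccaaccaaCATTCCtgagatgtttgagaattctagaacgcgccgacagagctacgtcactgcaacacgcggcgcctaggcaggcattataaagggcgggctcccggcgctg
Ajuba upstream: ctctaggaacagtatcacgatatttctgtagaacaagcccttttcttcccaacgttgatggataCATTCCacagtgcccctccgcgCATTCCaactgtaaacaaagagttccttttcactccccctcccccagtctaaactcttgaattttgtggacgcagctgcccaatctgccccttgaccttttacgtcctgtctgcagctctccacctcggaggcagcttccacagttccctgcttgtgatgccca

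Levels of the members spanned a wide range. All 10 had reads, and 8 averaged at least 1 CPM, as did 43.7% of the features in the table. For comparison between genes, the CPM was divided by the length of the longest GENCODE transcript in kilobases and put on a log2 scale (log2 CPM per kb). The median member stood at 2.61 on this scale. The median of all features with a known length was -1.47, and 8 members were above it. For features with reads it was 0.90, with 7 members above. For the 11477 features with at least 1 CPM, a limit that 2 members did not reach, it was 3.31, with 4 members above. Between the highest member, Yap1, and the lowest, Ankrd1, the levels per kb differed 1150-fold. Ankrd1 averaged 0.0610 CPM, near the 0.0255 CPM that the 0.5 reads added to each count give a feature without reads. Folds that include Ankrd1 therefore depend on these added reads. Without the members under 1 CPM, the range from Yap1 to Ccn2 was 71.5-fold. These ranges depended on the length used: with the median transcript they were 4316-fold and 284-fold, with Tead1 at the top, and with merged exons 1075-fold and 53.8-fold, with Amotl1 at the top.

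**Figure D2:**
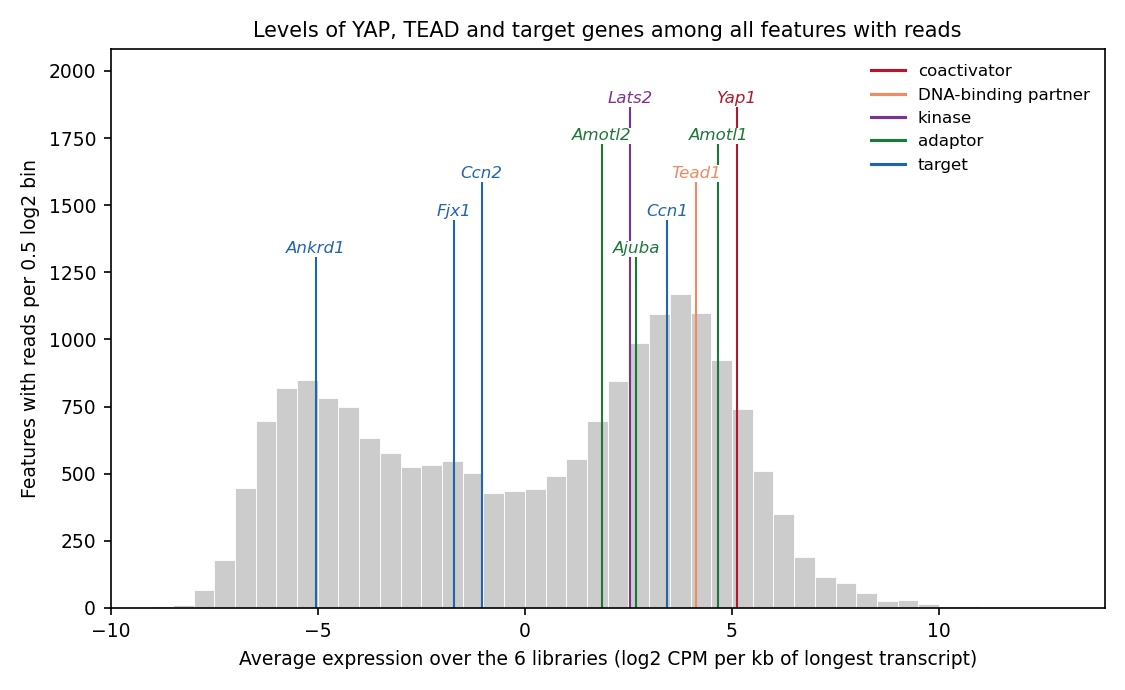
Average expression of the 10 members (coloured lines, by role) in log2 CPM per kb of the longest transcript, over a histogram of the features with reads and a known length. Yap1, Amotl1 and Tead1 stand in the upper part of the distribution and Ankrd1, Fjx1 and Ccn2 in the lower.

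Yap1, the coactivator, was the highest member per kb of the longest transcript. With merged exons Amotl1 was above it, at 4.51 against 4.31 in log2 CPM per kb, and with the median transcript Tead1 was, at 7.16 against 6.99. It lies on chromosome 9 (GRCm38, 7931999 to 8004596, minus strand) with 10 annotated transcripts. Its average was 7.52 in log2 CPM, or 183 CPM, and 5.12 in log2 CPM per kb, above 83.0% of the features with at least 1 CPM. Wwtr1, which encodes TAZ, was close by at 4.94 in log2 CPM per kb, a ratio of Yap1 to Wwtr1 of 1.13 that ran from 0.657 to 4.09 with other definitions of gene length. The order of these RNAs depended on the length used. Exons of Yap1 shared 1.25% of their bases with Gm20416 on the other strand.

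Tead1, the member that binds DNA, lies on chromosome 7 (112679318 to 112906807, plus strand). Its average of 7.45 in log2 CPM, or 174 CPM, was near that of Yap1, and per kb it stood at 4.13, above 66.2% of the features with at least 1 CPM. The ratio of Yap1 to Tead1 per kb was 1.98, but 0.891 with the median transcript length, so no order between them can be given. Within the TEAD family Tead1 was the highest per kb. Tead2 followed at 3.02, Tead4 at 1.43 and Tead3 at 0.85, and Tead1 exceeded Tead2 2.16-fold, Tead4 6.49-fold and Tead3 9.70-fold. This place of Tead1 held with each of the 3 length definitions, with lowest ratios of 2.16, 5.57 and 9.70. The VGLL proteins, which also bind TEAD factors, were represented by Vgll4 at 3.29 and Vgll3 at 2.85 in log2 CPM per kb. Vgll1 and Vgll2 had no reads and stood at 0.0255 CPM, the value that the 0.5 reads added to each count give a feature without reads.

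Lats2, the kinase, lies on chromosome 14 (57689662 to 57758388, minus strand). It averaged 30.0 CPM, or 4.91 in log2 CPM, and 2.53 in log2 CPM per kb. With the longest transcript, that was the second lowest level among the 14 genes of the Hippo core, of which Wwc1 was the lowest at 1.64 and Map4k4, a kinase upstream of LATS, the highest at 5.99. Lats2 was the third lowest with merged exons, but stood above 7 of the other 13 genes with the median transcript. Its paralog Lats1 stood at 4.70 and exceeded Lats2 4.48-fold per kb, or 1.29-fold with the median transcript length. Of the exon bases of Lats2, 42.4% are shared with the annotated gene Gm49361 on the same strand. Reads in that stretch may have been given to either gene or to none, so the Lats2 level is uncertain.

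In the rest of the Hippo core, 13 genes without Lats2, the median was 4.70 in log2 CPM per kb. That was above the median of 3.31 for features with at least 1 CPM. Some of the 13, Mob1b and Wwc1 among them, were below 3.31. All 14 genes averaged at least 1 CPM. Nf2, which encodes the scaffold merlin, stood at 5.38 and the LATS cofactors Mob1a and Mob1b at 5.11 and 3.27. The MST kinase genes Stk4 and Stk3 were at 4.96 and 4.92, and their partner Sav1 at 4.67.

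Among the adaptors, Amotl1 was far above the other angiomotins. Amotl1 (chromosome 9, 14541966 to 14645056, minus strand) had the highest log2 CPM of the members, 7.84 or 229 CPM, and stood at 4.67 in log2 CPM per kb. Amotl2 (chromosome 9, 102716672 to 102733418, plus strand) had a geometric mean of reads plus 0.5 of 315 per library and a level of 1.86 in log2 CPM per kb, and Amot itself 1.14. Amotl1 exceeded Amotl2 7.05-fold per kb, between 6.05-fold and 8.92-fold over the length definitions. It exceeded Amot 11.6-fold, between 11.6-fold and 34.8-fold.

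Ajuba (chromosome 14, 54567472 to 54577558, minus strand), a LIM adaptor that binds LATS kinases, averaged 21.9 CPM and 2.69 in log2 CPM per kb. With the longest transcript it stood between its relatives Limd1 at 3.54 and Wtip at 2.43. Limd1 exceeded Ajuba 1.80-fold per kb, between 1.56-fold and 10.3-fold over the length definitions, whereas the ratio of Ajuba to Wtip was 1.20 and fell to 0.555 with the median transcript length, so the order of these last genes is not settled.

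**Figure D3:**
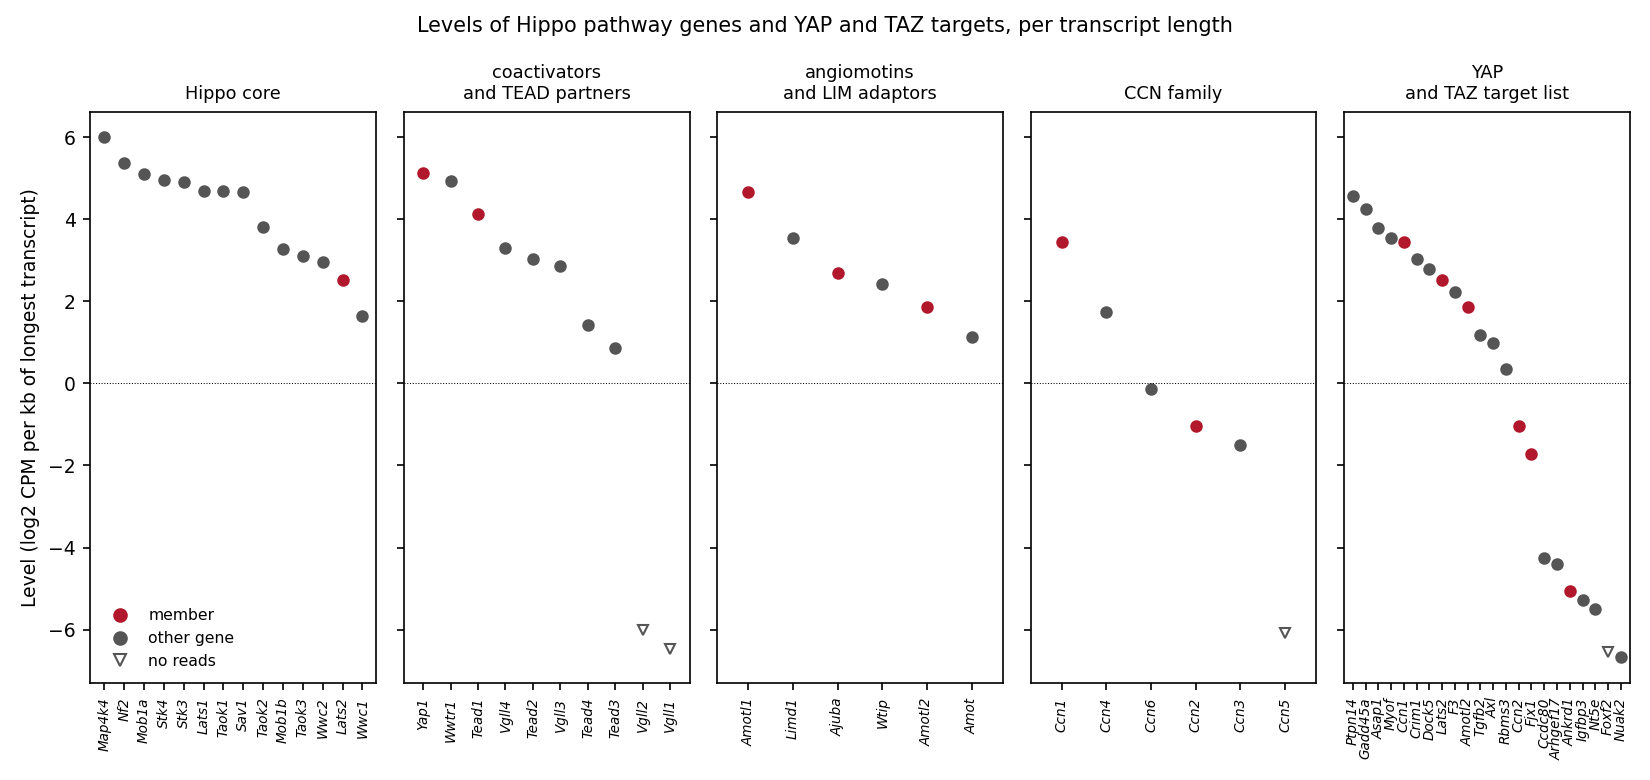
Levels of the genes of 5 lists in log2 CPM per kb of the longest transcript, ordered within each list, with the 10 members in red, other genes in grey and open triangles for genes without reads. With this length Yap1, Amotl1 and Ccn1 are each the highest of their list or family and Lats2 is next to the lowest of the Hippo core, and of these places only that of Amotl1 is the same with the median transcript and with merged exons.

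Among the 10 members, the secreted and nuclear targets differed more among themselves than the adaptors, the only other role with several genes. Ccn1 (chromosome 3, 145646976 to 145649981, minus strand), a matricellular protein that binds integrins, averaged 22.0 CPM and 3.44 in log2 CPM per kb, above 52.4% of the features with at least 1 CPM. Ccn2 (chromosome 10, 24595442 to 24598683, plus strand), its relative known as connective tissue growth factor, averaged 1.21 CPM and -1.04 in log2 CPM per kb. Ccn1 thus exceeded Ccn2 22.4-fold per kb, between 21.6-fold and 25.7-fold over the length definitions. In the exons of Ccn2, 23.2% of the bases are shared with Gm15270 on the other strand.

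Of the CCN family of 6 genes, Ccn1 was the highest with the longest transcript. Ccn4 stood at 1.74, Ccn6 at -0.14 and Ccn3 at -1.50 in log2 CPM per kb, and Ccn5 had no reads. The ratio of Ccn1 to Ccn4 was 3.25, but 0.602 with the median transcript length, which put Ccn4 first.

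Fjx1 and Ankrd1 averaged under 1 CPM. Fjx1 (chromosome 2, 102449366 to 102452499, minus strand), a secreted relative of the Drosophila protein Four-jointed, averaged 0.958 CPM and -1.71 in log2 CPM per kb. At a geometric mean library size of 19641946 reads, its geometric mean of reads plus 0.5 was 18.8 per library, and the Ccn2 average was 23.8 on the same scale. Ankrd1 (chromosome 19, 36111961 to 36120099, minus strand), a nuclear ankyrin-repeat protein best known from muscle, averaged 0.0610 CPM and -5.05 in log2 CPM per kb. The Ankrd1 average corresponds to a product of 189 over the libraries, each read count entering as 2 times the count plus 1. Only 7 sets of 6 whole counts give this product, with totals from 6 to 94 reads and with reads in at most 4 of the 6 libraries. For Ccn2 the same arithmetic requires at least 1 library with 48 or more reads, since the product contains the prime number 97.

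A wider list of 22 YAP and TAZ targets, which includes 6 of the members, also ranged widely in level. It had a median of 1.08 in log2 CPM per kb, and 14 genes averaged at least 1 CPM. Ptpn14, a phosphatase that restrains YAP, was the highest at 4.58, and Gadd45a, Asap1 and Myof stood at 4.24, 3.79 and 3.55. Ccn1 was the fifth of the 22 with the longest transcript, the fourth with merged exons and the eleventh with the median transcript. Of the 8 genes under 1 CPM, Ankrd1 and Fjx1 were members, and the others were Ccdc80, Arhgef17, Igfbp3, Nt5e, Nuak2 and Foxf2, of which Foxf2 had no reads. Nuak2 was the lowest of the genes with reads at -6.67. Its geometric mean of reads plus 0.5 was 0.600 per library, so this level mainly reflects the added reads and the transcript length. Foxf2, without reads, stood at -6.54.

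The cells carried the markers of their lineage. All 7 melanocyte genes looked at (Mitf, Sox10, Tyr, Tyrp1, Dct, Pmel and Mlana) had levels between 5.29 and 11.07 in log2 CPM per kb. Among markers of other cell types, Krt5 had no reads, and Krt14, Ptprc, Cdh5 and Col3a1 were under 1 CPM. Pecam1, Col1a1 and Pdgfra averaged 1.21, 1.70 and 3.28 CPM, and their part in the levels of the members was not tested.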

How the data were processed

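RNA-seq of B16F10 cells was analysed from 1 deposited table. According to the methods and the submitters' processing notes, the authors prepared directional libraries, aligned paired reads to mm10 with HISAT2 (2.1.0), counted them with featureCounts (2.1.1) and compared OZO with OLO by limma-voom (3.58.1). The strand setting and the gene annotation of the counting are not given in the sources used here. The authors' average expression is deposited in log2 CPM, as a mean over the 6 libraries in which 0.5 reads are added to each count. The table also holds the fold changes, moderated statistics, p-values and log odds of the authors' comparison, and none of these was used. Values per library were not analysed here. The treatments were therefore not compared and no model was fitted.

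Features without reads share the lowest value, which gave a geometric mean of the scaled library sizes of 19641946 reads, or 19.6 reads for 1 CPM. The depth of each library is unknown. All 6973 features with a product under 1000000 came out as whole counts, within a relative tolerance of 1e-06. This tolerance widens with the product, so it is loose for the largest of them. The Ccn2 product was above 1000000 and lay 0.000164 from a whole number. Levels per kb used the longest GENCODE M21 transcript (GRCm38), found for 23882 of 24126 Ensembl identifiers, and the median transcript or merged exons as alternatives. The authors may have counted over other gene models. Motifs were counted on both strands with overlaps in RefSeq promoters. Library size, whole counts and motif search were tested on simulated data. The members and lists were chosen with earlier results of these data known. Genes named were the members, their paralogs and partners, and the highest and lowest gene of each list. Further genes of the wider target list and the markers were named after their values were seen. Python 3.11.15, numpy 2.4.6, pandas 2.3.3, sympy 1.14.0 and matplotlib 3.10.9 were used.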

Additional observations from a re-analysis of the deposited data

How the results depend on the processing

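No paired analysis was possible because the value analysed is 1 average per gene over both treatments. For the same reason leaving out a library, other normalizations, pseudocounts and tests of OZO against OLO were not run. Of the 10 members, 8 were above the median level per kb of all features and 7 above that of features with reads, but 4 above that of features with at least 1 CPM, a set limited to higher genes. Of the 45 pairs of members, 42 kept their order in log2 CPM without length, 39 per kb of the median transcript and 44 per kb of merged exons. The motif was held by 6 genes as 6 letters, and by 3 when ending in A and 4 when ending in T. Without the members, the median of the coactivators and TEAD partners was 2.14 in place of 2.94 log2 CPM per kb, and the other 4 lists moved by less than 0.5. For some members the median transcript was much shorter than the longest, as for Tead1 with 1218 against 9964 bases. For Ccn1 both had 2019 bases. How far short annotated fragments set the median was not tested. Precision at low depth limits Ankrd1, Fjx1 and Ccn2 most.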

Other observations

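The TEAD motif was also counted in the promoters of the other Hippo pathway and target genes looked at, of which 32 of 44 had a window. It stood in 12 of these (37.5%), beside 16.6% of all genes with a window. Of the 7 coactivators and TEAD partners outside the members, 5 held it, namely Wwtr1, Tead3, Vgll1, Vgll3 and Vgll4, whereas Tead2 and Vgll2 did not. Tead3 had 3 windows and Wwtr1 2, which raises their number of chances for a match. Wtip held 4 matches in 1 window and Wwc2 held 3, where 1.36% of all windows held 2 or more. Of the 11 targets outside the members with a window, 3 held it (Axl, Crim1 and Ptpn14). These genes were named after their values were seen, and no test was made of the difference between lists.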
